A study of Mus musculus with 36 samples.

Results

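The mouse Cyp2c cluster is a row of cytochrome P450 genes on chromosome 19, and 10 of its protein-coding genes are described here by the DNA methylation of their CpGs in liver. The members were Cyp2c55, Cyp2c29, Cyp2c38, Cyp2c39, Cyp2c40, Cyp2c69, Cyp2c37, Cyp2c54, Cyp2c50 and Cyp2c70, in the order in which they lie along the chromosome. They were chosen by name, and the CpGs of a member were those from 5000 bases upstream of the gene to 1000 bases past its end (build mm9, GENCODE gene models). These intervals held 2043 of the 18887127 autosomal CpGs in the count tables and 10 of the 21344 autosomal protein-coding genes with a CpG.

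Whole-genome bisulfite sequencing had been run on the livers of 24 mice, 3 in each of 8 groups. The parents were B6 (C57BL/6N) and C3 (C3H/HeN) sires and dams. Their offspring were sons and daughters of the cross of a B6 dam with a C3 sire (B6C3F1) and of the cross of a C3 dam with a B6 sire (C3B6F1). Parents were mated at week 10 and all animals were sacrificed at week 20, so each dam had raised a litter, and the F1 daughters were virgin. Sex and having raised pups therefore cannot be told apart between sires and dams, whereas F1 sons and daughters differed by sex without offspring. The paper describes 3 families per cross, each with a sire, a dam, a son and a daughter. No source used here ties the numbered animals of different groups to one family, and the spread behind each p-value is that among these animals.

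The CYP2C enzymes are haem monooxygenases of the endoplasmic reticulum that take electrons from the P450 reductase POR. They hydroxylate drugs, steroids and retinoids, and several members turn arachidonic acid into epoxides or hydroxy acids. In rodent liver many of these genes are expressed at different levels in males and females, a pattern set by the sex-dependent rhythm of growth hormone release acting through STAT5. Methylation of CpGs near gene starts is in general low where a gene is active. It is often, but not always, high where a tissue leaves the gene silent. These statements are background, and no expression was measured in these libraries.

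Read depth differed between the strains in part of the cluster. Members carried 3.93 CpGs per kb against 7.89 over the autosomes, and 2.32 single-nucleotide variants (SNVs) between the strains per kb against 1.17. Single animals had 17.7 to 31.8 reads per CpG over the members. B6 animals averaged 27.3 reads per CpG and C3 animals 23.4, and the crosses lay between them (25.8 for B6C3F1, 24.4 for C3B6F1). The autosomal means were 28.8 for B6, 26.3 for C3, 28.4 for B6C3F1 and 26.3 for C3B6F1. Depth in C3 was lowest in Cyp2c38, with 16.3 reads against 24.8 in B6, and in Cyp2c29, with 19.9 against 27.7. Those genes also had 4.84 and 2.99 SNVs per kb. Cyp2c55, at 27.7 and 28.7 reads, and Cyp2c37, at 27.9 and 28.5 reads, were nearly level between the strains. The tables held 48.8% of the CG dinucleotides of mm9 in the Cyp2c38 interval and 61.6% of those in Cyp2c39, against 97.8% in Cyp2c37 and 99.6% in Cyp2c55.

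**Figure D1:**
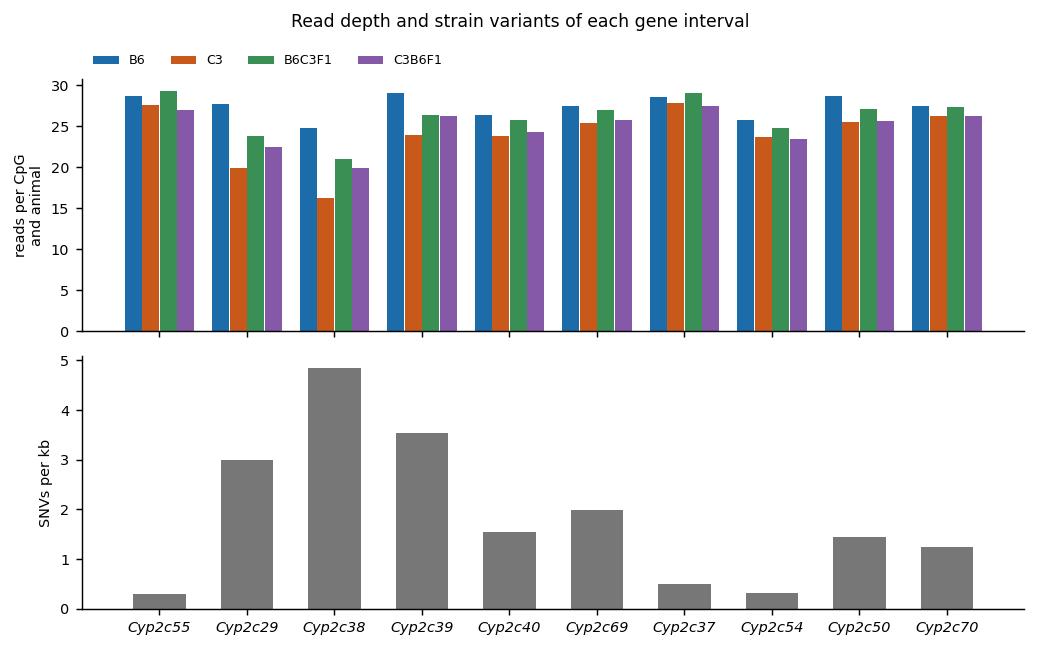
Mean reads per CpG and animal (upper bars, by strain or cross) and SNVs per kb (lower bars) of the 10 intervals. The C3 bar falls below the B6 bar most in Cyp2c38 (16.3 against 24.8 reads) and Cyp2c29 (19.9 against 27.7), and Cyp2c38 has the most SNVs per kb, 4.84.

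A read of 100 bases can fit more than one copy of such similar genes. All bisulfite-converted 100-mers over a CpG were unique in mm9 for 63.7% of the member CpGs. Only exact copies of single 100-mers were counted. The reads were sequenced in pairs and aligned with mismatches allowed, so this share does not describe how they were placed. The share was 92.3% in Cyp2c55, 90.6% in Cyp2c39, 87.3% in Cyp2c70 and 85.2% in Cyp2c37, but 34.7% in Cyp2c40, 40.5% in Cyp2c54 and 44.7% in Cyp2c69. The number of unique CpGs is given with the windows and regions described in detail.

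The sequences shown are stretches of intron 1 of Cyp2c40 and of Cyp2c69, which are close copies and held the 3 windows with the largest sire and dam differences, and a stretch upstream of Cyp2c70, where dams were higher. From 4000 bases before to 5500 bases after the gene start, Cyp2c40 and Cyp2c69 were 97.5% identical over 9404 aligned bases. The lines that follow give mm9 in the direction of transcription, all from the minus strand of chromosome 19, with every CG in capitals. They are chr19:39885995-39886254 (Cyp2c40) and chr19:39960000-39960259 (Cyp2c69), the stretches nearer the gene start, then chr19:39883025-39883274 (Cyp2c40) and chr19:39957025-39957274 (Cyp2c69), farther into the intron, and chr19:40265113-40265383, upstream of Cyp2c70.
Cyp2c40 intron 1, near the start: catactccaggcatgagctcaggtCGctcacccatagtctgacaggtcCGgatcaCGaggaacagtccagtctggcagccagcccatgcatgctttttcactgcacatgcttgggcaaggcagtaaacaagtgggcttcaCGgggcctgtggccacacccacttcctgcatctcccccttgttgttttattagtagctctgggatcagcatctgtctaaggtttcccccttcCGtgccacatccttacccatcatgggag
Cyp2c69 intron 1, near the start: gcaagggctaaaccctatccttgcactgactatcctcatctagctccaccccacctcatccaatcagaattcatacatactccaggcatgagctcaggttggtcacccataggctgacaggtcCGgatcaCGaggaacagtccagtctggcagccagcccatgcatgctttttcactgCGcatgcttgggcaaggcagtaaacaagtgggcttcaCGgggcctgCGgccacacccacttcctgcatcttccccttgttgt
Cyp2c40 intron 1, farther in: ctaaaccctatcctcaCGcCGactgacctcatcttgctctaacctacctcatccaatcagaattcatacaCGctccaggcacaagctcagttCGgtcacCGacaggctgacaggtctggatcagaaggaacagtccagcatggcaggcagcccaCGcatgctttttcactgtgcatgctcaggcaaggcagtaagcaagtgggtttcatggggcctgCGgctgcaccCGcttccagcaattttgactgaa
Cyp2c69 intron 1, farther in: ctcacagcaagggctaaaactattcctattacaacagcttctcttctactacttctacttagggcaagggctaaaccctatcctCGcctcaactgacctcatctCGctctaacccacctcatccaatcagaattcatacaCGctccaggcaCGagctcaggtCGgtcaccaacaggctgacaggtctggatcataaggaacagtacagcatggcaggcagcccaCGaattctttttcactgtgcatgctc
Cyp2c70 upstream: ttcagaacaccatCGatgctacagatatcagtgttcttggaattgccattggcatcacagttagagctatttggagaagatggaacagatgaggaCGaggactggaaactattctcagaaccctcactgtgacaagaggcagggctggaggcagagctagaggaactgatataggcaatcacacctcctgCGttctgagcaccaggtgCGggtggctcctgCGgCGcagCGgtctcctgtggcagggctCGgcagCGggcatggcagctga

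The methylation level is the share of reads at a CpG that kept a C, in percent, and the level of an interval, promoter or window is that share over its summed reads. In bulk liver, a share of cells that is fully methylated and partial methylation in all cells cannot be told apart. Promoters of 9 hepatocyte marker genes had a median level of 28.7% in males and 28.3% in females, and those of 5 leukocyte markers 85.9% and 84.4%. The medians of the Kupffer cell markers (3 of 5, those found by name among the autosomal genes used) were 84.7% and 83.7%. Those of 4 endothelial markers were 67.8% and 68.4%, those of 4 stellate cell markers 13.6% in both sexes and those of 4 cholangiocyte markers 50.2% and 50.7%. Single genes varied widely within these 3 lists. Their means spanned 3.32% to 82.9% (endothelial), 0.68% to 54.6% (stellate) and 0.94% to 73.1% (cholangiocyte). On gene intervals, 1 Kupffer (Clec4f), 1 leukocyte (Ptprc) and 1 stellate cell marker (Dcn) were higher in sires than in dams and 1 hepatocyte marker (Cps1) was higher in dams (limma), and no marker passed between F1 sons and daughters. Between the strains 3 of 3 Kupffer, 3 of 4 endothelial, 2 of 5 leukocyte, 2 of 4 stellate and 1 of 9 hepatocyte markers were lower in B6, and 2 hepatocyte markers and 1 of 4 cholangiocyte markers were higher. Of all intervals 12.2% were higher in sires and 1.39% in dams, and 24% were lower and 4.17% higher in B6. On promoters 3 of 9 hepatocyte markers (Apoa2, Cps1 and Fgb) were higher in B6, where 4.88% of all promoters were, and 1 stellate cell marker (Pdgfrb) was lower. The part of cell composition in the results was not tested.

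Member promoters, from 1000 bases before to 500 after the gene start, were partly methylated in every group with 1 exception. Cyp2c55, an inducible gene known from the large intestine, had 8 promoter CpGs with levels of 82.4% to 96.0% in the 24 animals. The other promoters with at least 3 CpGs, those of Cyp2c39, Cyp2c40, Cyp2c69, Cyp2c54, Cyp2c50 and Cyp2c70, had means of 22.3% to 47.5% in sires, dams, F1 sons and F1 daughters. Cyp2c37 and Cyp2c38 had 2 promoter CpGs each and Cyp2c29 had 1, which was too few for the test. The Cyp2c29 promoter used here is that of its outermost 5′ end, and GENCODE has another transcript start farther in. The promoter of that start, chr19:39360601-39362101 with 7 CpGs, differed by 2.58 points between sires and dams (limma, adjusted p = 0.862) and by 4.73 points between B6 and C3 (adjusted p = 0.175), and passed in neither. None of the 7 promoters tested passed between sires and dams or between F1 sons and F1 daughters (limma, lowest Benjamini-Hochberg adjusted p = 0.419 and 0.188), with 2 and 2 promoters at an unadjusted p below 0.05. Of all 20595 promoters, 0.515% and 0.223% passed. With a wider promoter (2000 bases before to 1000 after the start) 1 member passed in each of these comparisons. No share of all promoters is given at that width.

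From 500 bases before to 5000 bases after the gene start, members differed in how many CpGs had a low level. In Cyp2c70, 24 of 31 CpGs there were below 30% in the mean of the 8 groups, and their mean level was 27.3%, against 77.1% over the other CpGs of its interval. Cyp2c50, an arachidonate epoxygenase gene, had a mean of 51.6% and 4 of 23 CpGs below 30%. Cyp2c40 had 8 of 50 and Cyp2c39 had 5 of 21. In Cyp2c55 and Cyp2c29 no CpG of this stretch was below 30%, and in the other members 1 to 4 were. The mean of the 8 groups pools the sexes, so CpGs low in females only can be missed. Cyp2c69:39960043, for example, was at 26.1% in dams and 77.2% in sires. For Cyp2c29 the stretch follows the outermost 5′ end, and 19 of the 306 CpGs in the rest of its interval, which holds the second transcript start, were below 30%. In the same stretch 28 of 56 CpGs of Cyp2c69 and 18 of 50 of Cyp2c40 were at least 20 points higher in males than in females, against 4 of 17 in Cyp2c38, 3 of 21 in Cyp2c39 and none in the other 6 members, and none was 20 points higher in females in any member. No share of all CpGs, or of CpGs near other gene starts, is given for the 30% or the 20-point rule.

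Whole intervals were methylated at 68.0% to 87.3% in the sire and dam means, and sex separated some members and not others. Between sires and dams 5 of the 10 intervals passed (adjusted p below 0.05), where 13.6% of the 21223 intervals tested did. Cyp2c40, Cyp2c69, Cyp2c38 and Cyp2c39 were higher in sires, a direction that 12.2% of all intervals showed, and Cyp2c29 was higher in dams, against 1.39%. The median difference over the members was -0.355 points, and over all genes it was 0.509 points.

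Cyp2c69, a gene known for its female-predominant expression in mouse liver, had the largest interval difference. Its 206 CpGs were at 85.1% to 87.6% in the 6 sires (mean 86.2% ± 1.06, SD) and at 70.0% to 79.5% in the 6 dams (74.9% ± 4.21). The lowest sire lay above the highest dam. The difference was 11.3 points (log2 ratio 1.06, SE 0.0633, adjusted p = 1.22e-09). In the F1 animals the 6 sons were at 82.5% to 87.2% and the 6 daughters at 72.4% to 78.3%, again without overlap, and the difference was 9.90 points (adjusted p = 2.81e-08).

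Cyp2c40, which makes hydroxy acids from arachidonic acid and is likewise known as female-predominant, followed. Its 176 CpGs were at 80.4% to 82.8% in sires (81.9% ± 0.846, SD, n = 6) and at 70.8% to 74.7% in dams (73.2% ± 1.45). Sires and dams did not overlap, and the difference was 8.66 points (limma, log2 ratio 0.72, SE 0.0487, adjusted p = 5.55e-09). F1 sons spanned 79.4% to 83.0% and F1 daughters 71.8% to 76.1%. These groups did not overlap either, and they differed by 7.06 points (adjusted p = 3.56e-07).

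The other called intervals moved by fewer points. Cyp2c38 was at 81.4% to 84.9% in sires and 78.8% to 82.2% in dams, which overlapped, and its difference was 3.08 points (adjusted p = 9.46e-05). F1 sons (81.8% to 83.7%) all lay above F1 daughters (79.6% to 80.7%), by 2.54 points on average (limma, adjusted p = 0.00367). Cyp2c29, an epoxygenase gene that phenobarbital induces, went the other way. Its level was 73.3% to 75.5% in sires and 75.7% to 77.7% in dams (-2.33 points, adjusted p = 3.65e-04), and 73.9% to 75.4% in F1 sons and 77.4% to 78.4% in F1 daughters (-2.95 points, adjusted p = 9.88e-05). Neither pair of groups overlapped in Cyp2c29.

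Cyp2c39, known for hydroxylating retinoic acid, was 2.61 points higher in sires over both strains (limma, adjusted p = 4.07e-04), with C3 sires above C3 dams and B6 sires slightly below B6 dams, and it was 2.04 points higher in F1 sons (adjusted p = 0.0158). The second call was lost without any 1 of 3 animals, B6C3F1 daughter 2, C3B6F1 daughter 1 or C3B6F1 son 3, where the adjusted p was 0.0524 to 0.0537. Among F1 animals 5 of 10 intervals passed, the same 5 genes in the same directions, and 0.584% of all intervals did. By direction 4 were higher in sons, against 0.207% of all intervals, and 1 in daughters, against 0.377%. Cyp2c55, Cyp2c37, Cyp2c54, Cyp2c50 and Cyp2c70 passed in neither comparison.

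**Figure D2:**
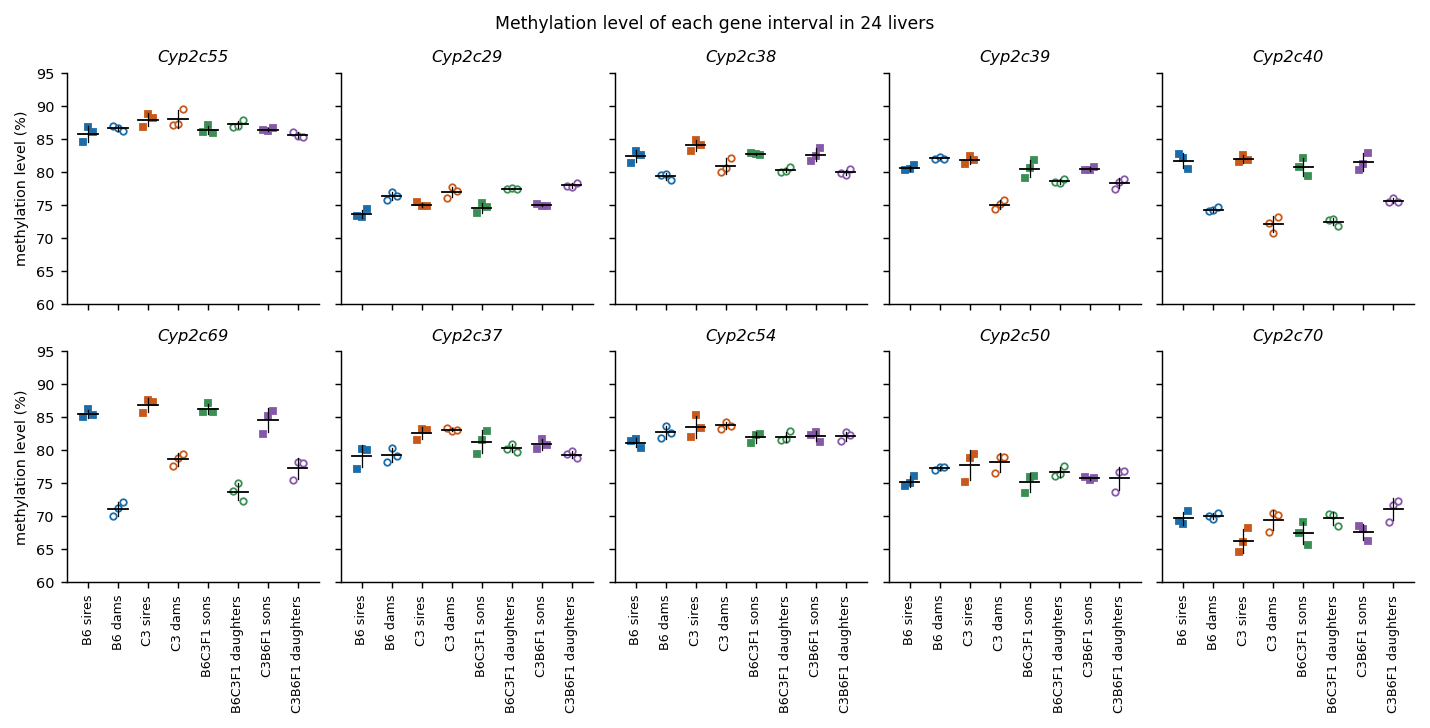
Methylation level (%) of each gene interval, with 1 point per animal (filled squares males, open circles females), the group mean as a horizontal line and its SD as a vertical line, for the 8 groups. In Cyp2c40 and Cyp2c69 every male sits above every female, in Cyp2c39 the C3 dams sit lowest. The vertical axes do not start at 0.

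The differences of Cyp2c40 and Cyp2c69 were concentrated in parts of intron 1. With single CpGs tested by a Wald test under a beta-binomial model and joined by the region rules of the study, 3 differentially methylated regions (DMRs) between sires and dams overlapped the members, 1 in Cyp2c40 and 2 in Cyp2c69, all in intron 1 and all higher in sires. Over all autosomes 584 DMRs were called, 193 higher in sires and 391 higher in dams. With a CpG threshold of 1e-4 the members had 6, and the autosomal DMRs were not recounted at that threshold. At single CpGs 70 of 2029 member CpGs passed p below 1e-5 between sires and dams, 63 of them higher in sires, where 0.121% of all CpGs passed. Between F1 sons and daughters 49 of 2030 passed, 45 of them higher in sons, against 0.0641%. These shares of all CpGs count both directions together, and no share by direction is given.

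The Cyp2c40 region, chr19:39885849-39886705, lies 599 to 1455 bases past the gene start and has 9 CpGs, 5 of them unique. The B6 sires were at 71.0%, 61.0% and 63.1% and the C3 sires at 64.3%, 72.9% and 68.9%. The dams were at 35.4%, 31.3% and 42.9% in B6 and at 28.2%, 23.2% and 32.3% in C3. Every sire lay above every dam in both strains. The F1 animals, which this region was not called in, were at 54.1% to 76.4% in sons and 27.2% to 47.6% in daughters.

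Cyp2c69 has a region at the corresponding distance, chr19:39959879-39960691, 568 to 1380 bases past its start, with 10 CpGs of which 4 are unique. Sires were at 81.7% to 86.9% (84.4% ± 2.12, SD, n = 6), and the dams at 40.1%, 44.4% and 35.3% in B6 and at 52.9%, 54.5% and 54.8% in C3. The B6 dams were the lowest of the 4 parental groups. F1 sons were at 70.0% to 78.8% and F1 daughters at 40.3% to 53.6%, so the sexes did not overlap there.

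Farther into the intron, 3201 to 4675 bases past the start, the second Cyp2c69 region (chr19:39956584-39958058) has 16 CpGs, 10 of them unique. The 6 sires were within 91.3% and 92.7%. The dams were at 55.2%, 53.9% and 57.0% in B6 and at 63.9%, 62.5% and 70.7% in C3, again lower in B6. F1 sons were at 85.6% to 93.4%, the B6C3F1 daughters at 60.5%, 61.0% and 59.6%, and the C3B6F1 daughters at 71.3%, 73.7% and 69.7%. The only DMR between F1 sons and daughters lay inside this region, at chr19:39957049-39958058 with 11 CpGs of which 6 are unique, with sons at 85.2% to 93.2% and daughters at 53.2% to 69.0%. Over all autosomes 278 DMRs were called in this comparison, 28 higher in sons and 250 higher in daughters. The Cyp2c69 call was lost in 4 of the 12 fits that left out 1 F1 animal (C3B6F1 son 3 and each B6C3F1 daughter). A second region was called without B6C3F1 son 2 or C3B6F1 daughter 3. With a CpG threshold of 1e-4, or with 50% of the CpGs of a region past the threshold, 4 member regions were called between F1 sons and daughters. The autosomal DMRs were not recounted under these settings.

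Single CpGs of the printed stretches show how uneven the difference was. In the Cyp2c40 stretch near the start, Cyp2c40:39886229 was at 60.7% in sires and 14.6% in dams (45.2% in F1 sons, 14.3% in F1 daughters), whereas its neighbour Cyp2c40:39886205 was at 28.4% and 17.1%. In the stretch farther in, Cyp2c40:39883203 was at 84.8% in sires and 20.9% in dams (64.3% and 26.6% in sons and daughters). At the far end of the same stretch Cyp2c40:39883046 was at 96.0% and 92.9%. The last CpGs of that stretch were thus high in both sexes.

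The matching stretches of Cyp2c69 behaved alike in direction. Cyp2c69:39960043 was at 77.2% in sires and 26.1% in dams, and at 58.8% in F1 sons and 20.1% in F1 daughters. Cyp2c69:39957122 was at 93.8% and 40.2%, and at 90.7% and 37.3%. These percentages pool the reads of the 6 animals of a group, and the 4 groups together had 789 and 517 reads at these CpGs.

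Aligned base by base, 43 CpGs are shared by Cyp2c40 and Cyp2c69, 38 of them past the gene start. In dams, 12 of the 43 were at least 20 points below sires in Cyp2c40 and 22 in Cyp2c69, and 11 positions were counted in both genes. In F1 daughters against sons the counts were 10 and 16, with 9 in both. No shared CpG was at least 20 points higher in dams than in sires in either gene. The share of all CpGs at this 20-point rule is not given. Where the copies are not unique over a read, the part of read placement in the likeness was not tested.

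**Figure D3:**
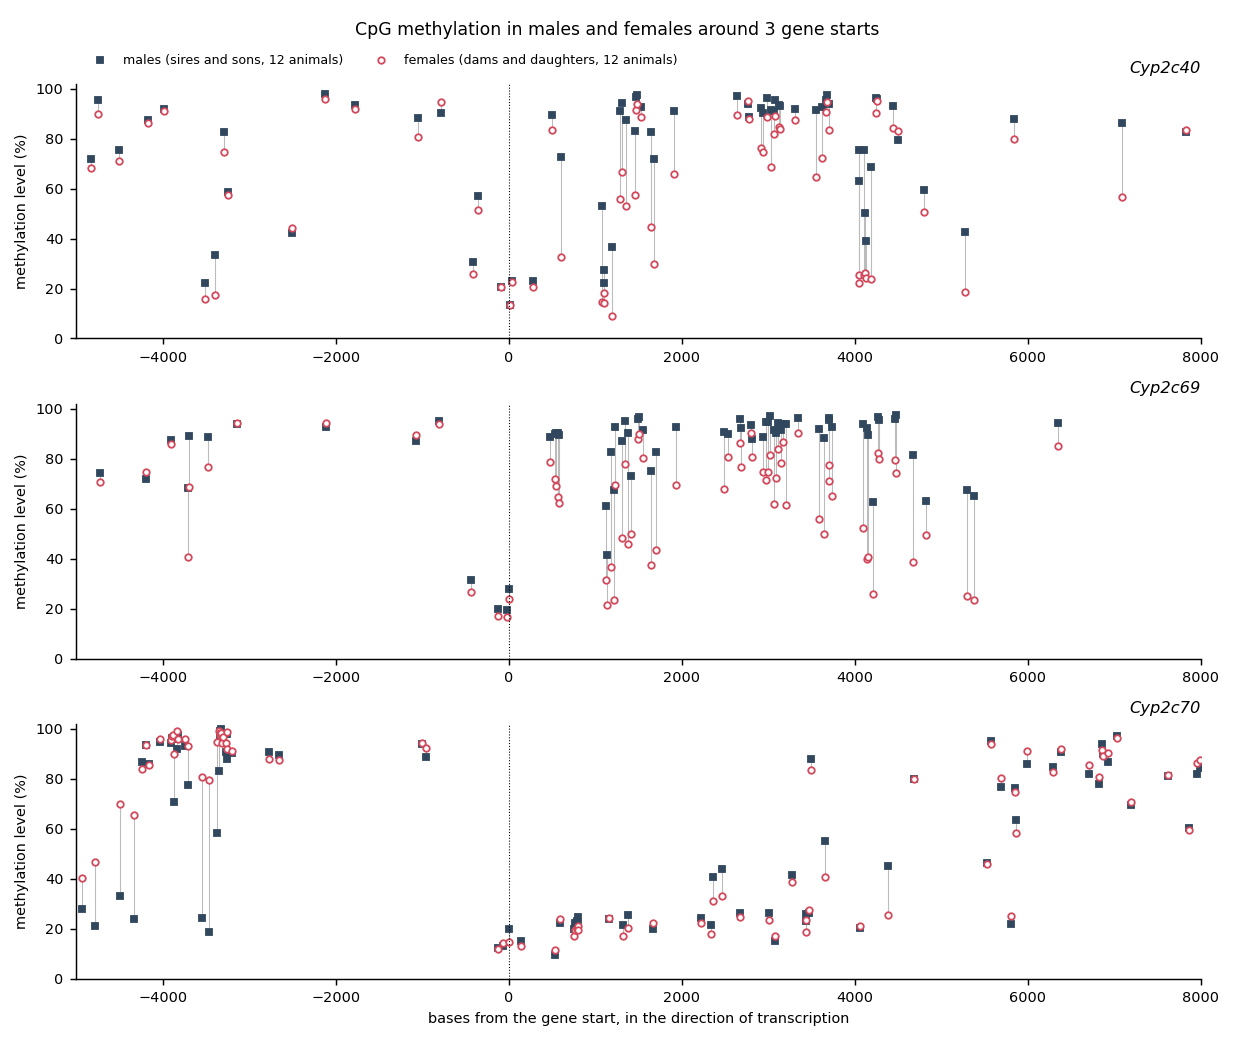
Methylation level (%) of each CpG from 5000 bases before to 8000 after the start of Cyp2c40, Cyp2c69 and Cyp2c70, as the mean of the 4 male groups (squares) and of the 4 female groups (circles), joined by grey lines. Both sexes are low at the dotted gene starts, females drop below males inside intron 1 of Cyp2c40 and Cyp2c69, and in Cyp2c70 males drop below females upstream.

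On fixed windows of 500 nt, 14 of the 274 member windows tested differed between sires and dams by at least 20 points at an adjusted p below 0.05, where 0.11% of all 2580465 windows did. Of these, 12 were higher in sires, against 0.0321% of all windows, and 2 were higher in dams, against 0.0774%. Between F1 sons and daughters 5 member windows passed, against 0.0571%, and all 5 were higher in sons, where 0.00368% of all windows were. The 5 lie in Cyp2c40 and Cyp2c69, and each was also called between sires and dams. On unique sequence 9 member windows were called between sires and dams and 2 between F1 sons and daughters. With at least 100 reads in every animal the counts were 5 and 2, and at 10 points or more they were 25 and 19. With at least 5 CpGs 9 were called between sires and dams. The shares of all windows printed here belong to the main rule and are not given for these other rules. Cyp2c40 39885501 to 39886000 had an F1 difference of 21.4 points, which was 19.6 on unique CpGs and 14.9 without CpGs near SNVs. Cyp2c40 39886001 to 39886500 had one of 20.2 points, which was 15.8 without CpGs near SNVs and under 20 without any 1 of 5 animals. At any size of difference 29 and 21 member windows passed, against 0.797% and 0.294%.

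The window with the largest difference was Cyp2c69 39957001 to 39957500, with 4 CpGs, all unique. Sires were at 83.1% to 88.2% and dams at 29.4% to 69.8%, and the means differed by 42.3 points (limma, log2 ratio 2.90, SE 0.266, adjusted p = 3.75e-08). F1 sons were at 73.1% to 88.9% and F1 daughters at 24.8% to 54.5%, a difference of 46.0 points (adjusted p = 5.81e-08). The sexes overlapped in neither generation.

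In Cyp2c40 39883001 to 39883500, with 8 unique CpGs, sires were at 68.7% to 87.8% and dams at 31.9% to 44.7% (40.0 points, log2 ratio 2.59, SE 0.178, adjusted p = 1.82e-10). F1 sons were at 51.4% to 78.0% and F1 daughters at 36.9% to 60.7%, which overlapped. Their difference of 19.8 points (limma, adjusted p = 3.31e-04) missed the call by its size only. The sex difference was 20.2 points larger in the parents than in the F1 animals (limma interaction, adjusted p = 0.0314), the single member window called in that comparison, where 0.0151% of all windows were (0.0148% in this direction). The call was lost in 16 of 24 fits without 1 animal, on the arcsine scale (limma, adjusted p = 0.0577) and without CpGs near SNVs (18.6 points).

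Cyp2c69 39960001 to 39960500 came next, with 5 CpGs, none of them unique. Its levels were 68.6% to 79.4% in sires, 26.5% to 45.3% in dams, 57.0% to 68.5% in F1 sons and 30.5% to 46.9% in F1 daughters. The differences were 38.4 points (limma, adjusted p = 6.69e-10) and 26.6 points (adjusted p = 3.44e-06). Cyp2c69 39959501 to 39960000, with 5 of 9 CpGs unique, was 23.9 points higher in sons (adjusted p = 8.66e-08). The other 6 windows of these 2 genes called between sires and dams differed by 24.1 to 32 points.

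Cyp2c38 and Cyp2c29, whose whole intervals went in opposite directions, each had 1 window higher in sires, named here after its values were seen. In Cyp2c38 39535501 to 39536000, 3 unique CpGs in intron 1 were at 52.2% to 67.6% in sires and 24.5% to 42.5% in dams (25.9 points, limma, adjusted p = 5.62e-06). The F1 means were 59.6% in sons and 48.4% in daughters, a difference of 11.2 points that did not pass (limma, adjusted p = 0.226). In Cyp2c29 39362501 to 39363000, 3 unique CpGs in intron 1 were at 30.5% to 44.9% in sires and 14% to 22.1% in dams (21.1 points, adjusted p = 1.48e-05). This window lies past the promoter of the second Cyp2c29 transcript start. Its F1 difference of 10.0 points did not pass (limma, adjusted p = 0.238). The direction of that window was opposite to that of the Cyp2c29 interval. Its sire and dam difference fell below 20 points without B6 dam 3 or B6 sire 1 (19.99 and 19.95 points).

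Cyp2c70, which makes muricholic acids from chenodeoxycholic acid in mouse liver, had the only windows higher in dams by at least 20 points, both upstream of the gene. At any size 7 member windows were higher in dams at an adjusted p below 0.05 (limma), 4 in Cyp2c70 and 3 in Cyp2c29. Of all windows 0.797% passed at any size in either direction, and the share higher in dams alone is not given. In 40265001 to 40265500, with 12 of 13 CpGs unique, sires were at 60.7% to 75.8% and dams at 90.4% to 97.2% (-22.2 points, limma, log2 ratio -2.57, SE 0.243, adjusted p = 7.05e-08). The sexes did not overlap there, nor among F1 animals, with sons at 72.8% to 79.4% and daughters at 90.1% to 94.3%. The F1 difference was -14.9 points (limma, adjusted p = 1.51e-04), short of the 20 points needed for a call. Without B6 sire 2, the lowest sire, the parental difference was -19.7 points, and on the unique CpGs alone it was -15.3 points, so the window fell short of 20 points in both cases.

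Within the printed Cyp2c70 stretch the difference lay at its first CpGs. Cyp2c70:40265287 was at 14.5% in sires and 84.4% in dams (23% in F1 sons, 73.8% in F1 daughters). Cyp2c70:40265369 was at 19.9% and 77.8% (28.3% and 82.6%). By contrast the last 5 CpGs were at 94.6% or more in both sires and dams. The second window, 40266501 to 40267000 with 4 CpGs of which 2 are unique, extends past the 5000-base limit and was at 29.2% to 46.9% in sires and 62.0% to 69.4% in dams (-24.4 points, limma, adjusted p = 2.98e-05). Between F1 sons and daughters it differed by -13.6 points and did not pass (limma, adjusted p = 0.0817).

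**Figure D4:**
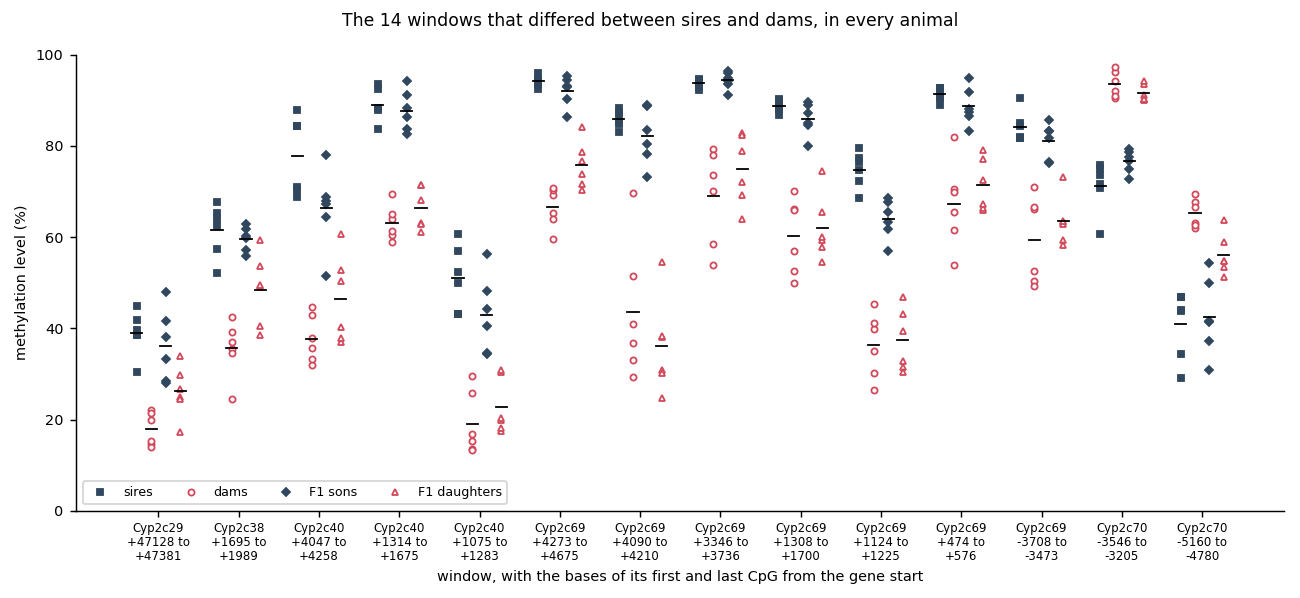
Methylation level (%) in every animal for the 14 windows called between sires and dams, with black bars at the means; the axis label gives the distance of the first and last CpG from the gene start in bases. Sires lie above dams in the 12 windows of Cyp2c29, Cyp2c38, Cyp2c40 and Cyp2c69 and below them in the 2 windows of Cyp2c70.

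The motif TTCNNNGAA, the core recognised by STAT proteins, was searched in the 14 windows on the reference sequence, where it reads the same on both strands. It was in 3 of the 14, the Cyp2c69 window upstream of the gene and both Cyp2c70 windows, and in 16.9% of the 2735167 autosomal windows of the same length with at least 3 CpGs. Both copies in Cyp2c70 40265001 to 40265500 are in the printed stretch. The E-box CANNTG, also the same on both strands, was in 14 of 14 and in 93.8% of all windows. A match is a description of the letters only.

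The sex difference of the parents was also compared between the strains, and Cyp2c39 was the 1 member interval that passed. The B6 sires were at 80.3%, 80.5% and 81.0% and the B6 dams at 82.0%, 82.2% and 82.1%. The C3 sires were at 81.2%, 82.4% and 81.8%, and the C3 dams at 74.4%, 75.1% and 75.8%. The C3 dams were below all other parents, while in B6 the dams were slightly above the sires. The difference between sires and dams in B6 minus that in C3 was -8.20 points (limma, log2 ratio -0.72, SE 0.0718, adjusted p = 6.92e-05), a contrast added after the values were seen. In this direction 0.00471% of all intervals passed. Over all 21223 intervals 0.00942% passed it, which was 2 genes. Leaving out 1 animal at a time gave -8.52 to -7.86 points, and the difference was -8.16 points on unique CpGs and -7.90 points without CpGs near SNVs.

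Of the 181 CpGs of Cyp2c39, 21 were at least 20 points higher in C3 sires than in C3 dams and 1 was lower, whereas in B6 none was higher and 1 was lower. Its depth was 23.9 reads per CpG in C3 and 29.1 in B6. Other members also differed between the strains by this count. In Cyp2c38, 26 were higher and 7 lower in C3 sires, against 10 and 0 in B6. Cyp2c69 had 35 higher in C3 sires and 59 in B6 sires. No share of all CpGs is given for this count. No single member window passed the contrast, where 0.000581% of all windows did (limma, lowest adjusted p = 0.377 over the member windows, 35 of 274 at an unadjusted p below 0.05). F1 daughters were between the dams of the strains, at 78.5%, 78.3% and 79.0% in B6C3F1 and at 77.5%, 78.5% and 79.0% in C3B6F1. The sons were at 79.2% to 81.8% and at 80.3% to 80.8%. Cyp2c69, in which the B6 dams were the lower ones, gave 6.18 points in the same contrast and did not pass (adjusted p = 0.189).

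Strain was compared in the parents, B6 against C3, with sires and dams weighted equally. Cell type markers moved with strain too (given with the marker levels), and their part was not tested. Of the 10 intervals 6 passed, where 28.1% of all intervals did, 1 higher in B6, against 4.17%, and 5 lower, against 24%. Cyp2c39 was 2.89 points higher in B6 (limma, adjusted p = 3.98e-05), where the sex difference in C3 enters. Every B6 dam lay above every C3 dam there, whereas every B6 sire lay below every C3 sire. Cyp2c69 was 4.42 points lower in B6 (adjusted p = 1.90e-04) and Cyp2c37, an arachidonate hydroxylase gene, 3.71 points lower (adjusted p = 6.00e-05). Cyp2c54, Cyp2c55 and Cyp2c38 were lower by 1.60 to 1.77 points, with adjusted p-values of 0.00696 to 0.0136. The median over all genes was -0.964 points, so these 3 differed from it by less than 1 point.

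Among promoters only that of Cyp2c39 passed between the strains, 1 of 7, where 12.2% of all promoters did and 4.88% were higher in B6. With the wider promoter 4 members passed, and the shares given here are those of the narrower promoter. The 7 CpGs of the narrower Cyp2c39 promoter were at 23.6% to 34.1% in the 6 B6 animals (29.3% ± 4.08, SD) and at 13.5% to 28.2% in the 6 C3 animals (21% ± 4.77), a difference of 8.36 points (limma, adjusted p = 0.00606). The ranges overlapped. The 300 bases before its start, chr19:39585052-39585351 on the plus strand with CG in capitals, hold 3 of these CpGs, which were at 15.2% to 19.9% in sires and dams.
Cyp2c39 promoter: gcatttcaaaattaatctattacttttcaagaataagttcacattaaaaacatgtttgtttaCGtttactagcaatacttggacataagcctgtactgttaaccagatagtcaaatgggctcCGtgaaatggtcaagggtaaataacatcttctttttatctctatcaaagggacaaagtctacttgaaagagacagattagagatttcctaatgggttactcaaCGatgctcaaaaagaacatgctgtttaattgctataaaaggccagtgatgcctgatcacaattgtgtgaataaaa

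At the scale of windows, 2 of 274 passed between the strains, where 0.436% did, 1 in each direction (0.225% of all windows were higher and 0.211% lower in B6). Both lie in intron 1 of the Cyp2c29 transcript from the outermost 5′ end, upstream of the second transcript start. In Cyp2c29 39323001 to 39323500 (10 CpGs, 3 unique, none near an SNV) the 6 B6 parents were at 62.3% to 74.9% and the 6 C3 parents at 91.5% to 96.4%, without overlap (-23 points, log2 ratio -2.52, SE 0.234, adjusted p = 7.82e-09). All 12 F1 animals were at 90.0% to 95.7%, which overlapped the C3 parents and lay above every B6 parent. F1 animals lay 10.8 points above the mean of the parents (limma, adjusted p = 0.00119, a contrast added after the values were seen), the only member window at any size in that contrast, where 0.0682% of all windows passed. Depth in the window was 17.6 reads per CpG and animal in B6, 13.8 in C3 and 15.6 in F1.

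In Cyp2c29 39329501 to 39330000 (3 CpGs, none unique, 1 near an SNV) the direction was opposite, with means of 88.0% in B6 and 58.5% in C3 (29.4 points, limma, adjusted p = 2.27e-10). F1 animals were at 64.6% to 80.6%, between the strains. Neither window could be tested on unique sequence alone, where too few CpGs or reads were left. With at least 100 reads in every animal 0 member windows were called between the strains (limma), with at least 5 CpGs or without CpGs near SNVs 1, and at 10 points or more 19. No share of all windows is given for these settings. At any size 27 member windows passed, 11 higher and 16 lower in B6, where 4.81% of all windows did, and 26 of 1950 CpGs passed the Wald test, where 0.497% did. None of the 2552 DMRs between the strains overlapped a member.

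**Figure D5:**
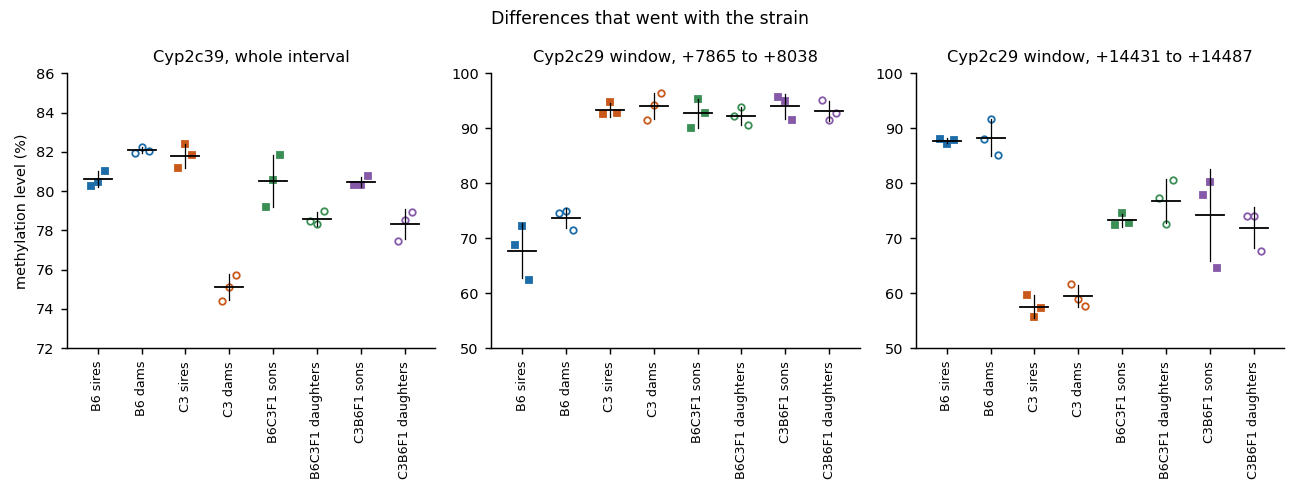
Methylation level (%) in each animal (filled squares males, open circles females) with group means and SD, for the Cyp2c39 interval and the 2 Cyp2c29 windows called between the strains; the vertical axes do not start at 0. C3 dams sit at 74.4% to 75.8% in Cyp2c39, F1 animals overlap the C3 parents in the first window and lie between the strains in the other.

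Dams against F1 daughters, sires against F1 sons and the reciprocal crosses called no member interval, promoter or DMR. Between dams and F1 daughters, which share the dams with the comparison of sires and dams, 4 of 10 intervals had an unadjusted p below 0.05 and none passed (limma, lowest adjusted p = 0.150), where 0.994% of all intervals did. Between sires and F1 sons no member interval reached an unadjusted p of 0.05, where 0.00471% of all intervals passed. Between the reciprocal crosses, B6C3F1 and C3B6F1, 1 interval did and none passed, where 0.0188% did. Member windows at an unadjusted p below 0.05 numbered 36, 20 and 23 of 274 in these comparisons, with 0 called (limma), where 0.0179%, 0.0012% and 0.000465% of all windows were called. No member CpG passed the Wald test in them, where 0.0225%, 0.000242% and 0.00143% of all CpGs did, and no member promoter passed (limma), where 0.155%, 0.0631% and 0.0146% of all promoters did. The difference between the sex differences of parents and of F1 animals called no interval either (0 unadjusted), where 0.179% passed, and DMRs were not called for it.

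Genes listed with the cluster by family or pathway were counted on their intervals. Of 5 other Cyp2c genes, 4 were lower in B6, 2 were higher in dams than in sires and 1 each was higher and lower in F1 sons. Of all intervals, 24% were lower in B6, 1.39% higher in dams, and 0.207% higher and 0.377% lower in sons. Cyp2c67, whose sequence around the start was 94.2% identical to that of Cyp2c40, was among those higher in dams and in daughters. Over the bases of Cyp2c67 that align with 500 to 1500 past the Cyp2c40 start, dams were at 77.2% to 86.9% and sires at 36.5% to 75.6%, opposite in direction to Cyp2c40 and Cyp2c69. This stretch was picked after the values were seen.

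Of 7 genes tested that act beside the CYP2C epoxygenases, 3 were lower in B6 (Cyp2j6, Cyp2j9 and Por, the electron donor), 2 were higher in dams (Ephx1 and Ephx2, the epoxide hydrolases) and Ephx2 was higher in F1 daughters, where 24%, 1.39% and 0.377% of all intervals were. Of 17 regulators of hepatic P450 genes tested, 6 were lower in B6, 3 were higher in sires (Cux2, Nr1i3 and Prlr) and 2 were lower in dams than in F1 daughters (Ghr and Prlr, the growth hormone and prolactin receptors). Of all intervals 24% were lower in B6, 12.2% higher in sires and 0.994% differed between dams and F1 daughters. The same 2 receptors passed between F1 sons and daughters, 1 in each direction, where 0.207% of all intervals were higher in sons and 0.377% in daughters. Prlr also passed the difference between the sex differences of parents and of F1 animals (sires minus dams above sons minus daughters), where 0.179% of all intervals passed. None of these genes passed between sires and F1 sons or between the reciprocal crosses.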

How the data were processed

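Methylated and unmethylated read counts per CpG from whole-genome bisulfite sequencing of 24 livers were used as deposited. Per the submitters' processing notes and the study's methods, the authors filtered reads (CASAVA 1.8.2), aligned them to mm9 with Bismark 0.7.8 and Bowtie 0.12.8, removed duplicates with Bismark's tool, trimmed overlapping mates, merged the libraries of an animal and kept CpGs that both strains carry. The deposited counts are raw, and the SNV list came from the authors' assemblies. FOXA1 libraries were not used here.

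Counts were summed per gene interval, promoter (1000 bases before to 500 after the gene's 5′ end, GENCODE vM1) and 500-nt window. Features with at least 3 CpGs and 30 reads in every animal were tested in limma 3.58.1 (R 4.3.3) on log2((methylated + 1)/(unmethylated + 1)), with 8 group means in 1 fit of 24 animals and Benjamini-Hochberg adjustment over all features. Intervals and promoters were called at an adjusted p below 0.05, windows also at 20 points or more. Adjusted p-values are from limma unless another test is named. For single CpGs a Wald test was coded that follows the beta-binomial model of DSS. DMRs needed at least 5 CpGs, 20 points and mostly CpGs with p below 1e-05, and DSS and Metilene themselves were not run. In data simulated on these libraries for sires against dams, limma called all 30-point changes among 60000 windows, and the Wald step found 61% and 95% of regions changed by 30 and 50 points among 150000 CpGs, with 0 false regions. Each simulation gave all features the same spread between animals. For limma this spread was a fixed value not estimated from these libraries, and only windows of middle to high level were changed. For the Wald step it was an estimate from these libraries. Real CpGs varied in their spread between animals, so these rates need not hold for them.

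All 10 members, every DMR and the 3 windows with the largest difference per direction are described. The members and lists were chosen with earlier results of these data known. The 7 comparisons share animals where they share a group, and 2 more contrasts (strain dependence of the sire and dam difference, F1 animals against parents) were added after seeing the data. Reads are not independent molecules beyond duplicate removal, and intervals cover counting error only. The 95% Wilson interval of 1 animal's level had a median half-width of 1.12 points for member intervals, 6.47 for promoters, 6.92 for called windows (32 to 443 reads) and 5.12 for DMRs. Same-numbered animals of different groups deviated with a correlation of -0.0085 to 0.062 over 84 pairs (median 0.0041, none above 0.1). Pairs of other numbers gave -0.032 to 0.013 over 168 pairs (median -0.0022), so the highest same-numbered value lay above all of these. Numbers were not treated as pairs in the main fit, and family ties between groups were not modelled there. The highest share of member CpGs with identical counts in 2 animals was 2.20%. Paralogs were aligned with MAFFT 7.526. Alternatives were pseudocount 5, an arcsine scale, other read, CpG and size minimums, a wider promoter, robust variance, a replicate block, leaving out CpGs near SNVs or each animal and, added after seeing the data, unique sequence only and all transcript starts.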

Additional observations from a re-analysis of the deposited data

Results flagged for a closer look

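In 160 groups of 6 animals 6 had 1 animal whose gap to the nearest other passed Dixon's 95% value. Chance gives about 1 in 20 where each group comes from 1 population. Here each group joined both strains or both crosses, and windows and DMRs shared CpGs with the intervals, so that rate need not hold. In the Cyp2c50 interval B6C3F1 son 1 was at 73.5%, with the next F1 son at 75.6%, and C3B6F1 daughter 1 was at 73.7%, with the next F1 daughter at 76.1%. In the Cyp2c55 interval C3 dam 3 was at 89.6%, with the next dam at 87.3%. C3 dam 1 was at 67.7% in the Cyp2c70 interval, with the next dam at 69.6%. In the Cyp2c69 window 39964501 to 39965000, upstream of the gene, C3B6F1 daughter 3 was at 73.1%, with the next F1 daughter at 63.5%. In the Cyp2c70 window 40265001 to 40265500 B6 sire 2 was at 60.7%, with the next sire at 70.8%, and without it that window no longer reached 20 points.

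Sex effects differed between groups in 2 results. In the Cyp2c39 interval the sire and dam difference was -8.20 points in B6 relative to C3 (limma, adjusted p = 6.92e-05), with the C3 dams lowest in 3 of 3 animals. In the Cyp2c40 window 39883001 to 39883500 the sex difference was 20.2 points larger in parents than in F1 animals (limma, adjusted p = 0.0314), and that call was lost without 1 animal in 16 of 24 fits.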

How the results depend on the processing

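No result reversed under any alternative run. Shares of all features are given for the main settings only, so the alternative counts below have no share beside them. On the counts of members, the wider promoter gave 4 calls between the strains and 1 each between sires and dams and between F1 sons and daughters, against 1, 0 and 0. Member windows between sires and dams numbered 25 at 10 points or more, 5 at 100 reads, 9 at 5 CpGs and 9 on unique sequence, against 14. Between F1 sons and daughters they numbered 19, 2 at 100 reads and 2 on unique sequence, against 5. Between the strains they numbered 19 at 10 points, 0 at 100 reads, 1 at 5 CpGs, 0 on unique sequence (where neither could be tested) and 1 without CpGs near SNVs, against 2. The window in which the sex difference differed between parents and F1 animals was not called (0) on the arcsine scale or without CpGs near SNVs. Fewer CpGs or windows entered the read, CpG, unique and SNV settings, and for the rest the cause was not tested. DMRs between sires and dams numbered 6 at a CpG threshold of 1e-4, against 3. Between F1 sons and daughters they numbered 4 at that threshold and 4 at a CpG share of 50%, against 1, and 0 to 2 without 1 animal. Leaving out 1 animal gave 0 to 1 interval calls between the reciprocal crosses, 0 to 1 promoter calls between F1 sons and daughters and 0 to 1 windows for the difference between parents and F1 animals. The Cyp2c40 window 39886001 to 39886500 fell from 20.2 to as little as 17.7 points between F1 sons and daughters without 1 of 5 animals and to 15.8 points without CpGs near SNVs, and its neighbour 39885501 to 39886000 from 21.4 to 19.6 points on unique CpGs and 14.9 points without CpGs near SNVs. Cyp2c70 40265001 to 40265500 was -15.3 points on unique CpGs. The replicate block by animal number gave 8 strain intervals against 6 and changed no other count by more than 1.5 times.

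Depth in C3, low in Cyp2c38 and Cyp2c29, and the few unique CpGs of Cyp2c40, Cyp2c54 and Cyp2c69 limit single CpGs and small windows there. Groups of 3 animals limit each group mean.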
